A study of Homo sapiens with 12 samples.

Results

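In a pooled CRISPR knockout screen, 1245 of the 123411 single-guide RNAs (sgRNAs) were designed against human microRNAs of the let-7 family or with a mir number up to 500. They were taken from the sgRNA count table by name alone: the target had to begin with hsa-let-7, or with hsa-mir- and a number no higher than 500, where hsa stands for human. The rule uses names and no measured value, and it was set with earlier results of these data known. The 1245 sgRNAs belong to 316 microRNA names, 11 of them let-7 names, in 190 families when letters and copy numbers after the family number are ignored. The library held 4 sgRNAs for 304 of the names, 3 for 7, 2 for 3 and 1 for 2. All lie in library A, the part of the GeCKO v2 knockout library that, unlike library B, includes microRNA sgRNAs, so a microRNA has fewer sgRNAs than most protein-coding genes. A further 6043 sgRNAs against 1548 microRNA names with numbers above 500, and 2000 entries of control guides without a genomic target, served as comparisons.

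N87, a gastric cancer cell line, and OE19, an adenocarcinoma line from the junction of oesophagus and stomach, both with an amplified HER2 gene, were infected with the library by lentivirus at a multiplicity of infection of 0.3. Cells of each line were selected for 7 days with puromycin (0.75 µg/mL for N87, 1.5 µg/mL for OE19) and collected as the baseline. After this selection they were grown for 14 days in DMSO as the vehicle or in lapatinib, which blocks the receptor kinases EGFR and HER2. N87 received lapatinib at 0.5 µM and OE19 at 1 µM. Each of the 6 conditions had 2 replicates from separate infections, which gave 12 libraries. All groups carried the Cas9 and sgRNA lentivirus, and both lines are cultures of a single established line, so the p-values describe the spread between libraries of that line.

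MicroRNAs are short RNAs that lower the output of messenger RNAs. The hairpin of the primary transcript is cut by DROSHA and DGCR8, carried out of the nucleus by exportin-5 (the XPO5 gene), cut again by DICER1 and loaded into an Argonaute protein, where the seed, a short stretch near the 5′ end, pairs with the target. MicroRNAs with the same seed share many targets, and one mature microRNA is often made from several genes, so a cut in one gene can leave the same mature sequence in the cell. In a pooled screen the share of an sgRNA among all reads stands for the share of cells that carry it. An sgRNA that is enriched after a drug therefore marks cells that grew or survived better than the rest of the pool. Fewer cells with an sgRNA and a poorer amplification of its sequence cannot be told apart in these counts.

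The mature sequences below belong to the microRNAs on which the results turn. They are shown 5′ to 3′ from RefSeq (GRCh38.p14), with the seed, bases 2 to 8, in capitals. The let-7 names and hsa-mir-98 are shown because 12 names carry 1 seed, which lets separate genes of one seed be compared:
hsa-let-7a-5p: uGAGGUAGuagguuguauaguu
hsa-let-7b-5p: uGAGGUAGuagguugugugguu
hsa-let-7d-5p: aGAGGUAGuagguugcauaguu
hsa-let-7e-5p: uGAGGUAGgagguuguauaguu
hsa-let-7g-5p: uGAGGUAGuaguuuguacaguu
hsa-miR-98-5p: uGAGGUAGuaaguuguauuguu

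The mir-15 and mir-16 group is shown because its sgRNAs had the highest median of the 9 microRNA lists in lapatinib-treated N87 cells:
hsa-miR-15a-5p: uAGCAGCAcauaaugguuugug
hsa-miR-15b-5p: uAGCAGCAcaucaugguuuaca
hsa-miR-16-5p: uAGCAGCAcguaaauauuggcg
hsa-miR-497-5p: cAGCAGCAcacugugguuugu

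The mir-181 group is shown because single sgRNAs of its members were among the 5 of largest fold in one line each. The mir-302 group is shown because its sgRNAs had the lowest family median in OE19:
hsa-miR-181b-5p: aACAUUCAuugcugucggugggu
hsa-miR-181c-5p: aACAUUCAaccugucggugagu
hsa-miR-302a-3p: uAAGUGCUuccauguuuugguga
hsa-miR-302b-3p: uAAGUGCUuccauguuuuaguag

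The last 4 are microRNAs that held the lowest p of the gene test or the sgRNA of largest fold in a lapatinib comparison:
hsa-miR-346: uGUCUGCCcgcaugccugccucu
hsa-miR-384: aUUCCUAGaaauuguucaua
hsa-miR-22-3p: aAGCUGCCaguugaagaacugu
hsa-miR-337-3p: cUCCUAUAugaugccuuucuuc

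On GRCh38.p14 the mature hsa-miR-384 lies on the minus strand at chrX:76919285-76919304, hsa-miR-346 on the minus strand at chr10:86264747-86264769, hsa-miR-22-3p on the minus strand at chr17:1713914-1713935 and hsa-miR-337-3p on the plus strand at chr14:100874553-100874574. The hsa-let-7a-5p shown is the copy of hsa-let-7a-1 on the plus strand at chr9:94175962-94175983. A hairpin was found in RefSeq for 276 of the 316 names, and 94 of these lie inside a protein-coding gene on the same strand.

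Library totals ran from 13105805 to 33743599 counts, and the microRNA sgRNAs took 90110 to 306259 of them. Their median count per library was 47 to 217, against 57 to 238 for all sgRNAs, and both extremes on the low side came from OE19 with lapatinib. The microRNA sgRNAs made up 0.907% ± 0.00100 (SD, n = 2) of the N87 baseline counts, 0.930% ± 0.00633 with vehicle and 0.890% ± 0.0113 with lapatinib. In OE19 the shares were 0.871% ± 0.0197, 0.894% ± 0.0106 and 0.735% ± 0.0677. With lapatinib, 23 and 9 of the 1245 sgRNAs had no count in the N87 replicates and 11 and 2 in the OE19 replicates, while no other library lacked more than 1. The spread among the microRNA sgRNAs widened in the same libraries. On the log2 scale of normalized counts, the interquartile range in N87 was 1.44 ± 0.01 for the baseline libraries, 1.45 ± 0.04 for vehicle and 2.70 ± 0.47 for lapatinib, and in OE19 it was 1.38 ± 0.04, 1.50 ± 0.03 and 1.67 ± 0.16 (SD, n = 2 libraries).

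In N87 cells lapatinib changed the abundance of most microRNA sgRNAs, about as often as it did for all sgRNAs. Of the 1227 tested (those with at least 40 counts over the 4 libraries), 357 rose and 390 fell against vehicle at an adjusted p below 0.05 by edgeR's quasi-likelihood test, or 29.1% and 31.8%. Over all sgRNAs tested 31.2% rose and 29.9% fell. The microRNA shares were thus near the background and carry no result of their own. Among the control guides 36.6% rose and 15.7% fell, so guides without a genomic target moved as well. What moved the other sgRNAs was not tested. Among the microRNA sgRNAs the log2 fold change was -0.15 at the median with an SD of 1.45, among the control guides it was 0.25 with an SD of 1.04, and the microRNA sgRNAs above number 500 stood at -0.11. Both replicate pairs gave the same picture sgRNA by sgRNA, with a Pearson correlation of 0.875 between pair 1 and pair 2 over 1227 sgRNAs that share their libraries.

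Asked whether the sgRNAs of one microRNA moved together, the gene test, a robust rank aggregation of the sgRNA p-values with an exact score distribution, passed none of 314 microRNAs in either direction. Over all 20885 gene names 0.0% passed as higher and 0.0144% as lower in this comparison. At an unadjusted p below 0.05 it named 19 microRNAs higher and 20 lower, 6.05% and 6.37%, against 5.08% and 5.18% of all names, and with sgRNA p-values from DESeq2 it again passed none. The sgRNAs of one microRNA pointed in different directions. Of the 287 microRNAs with 4 tested sgRNAs, 213 had at least 1 that rose, 223 had at least 1 that fell, and 155 had both. All 4 sgRNAs had the same sign for 41 microRNAs (14.3%, and 14.0% among the microRNAs above number 500). All 4 rose for 2 and all 4 fell for 1, and among 1306 microRNAs above number 500 for 16 and 11. The intraclass correlation of sgRNAs within a microRNA was 0.0214, and 0.0405 among the microRNAs above number 500.

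The clearest example of sgRNAs moving apart is hsa-mir-337, which had the lowest p for a higher gene in N87 (p = 0.00115, exact rank aggregation of edgeR's p-values, adjusted p = 0.587). It lies in the imprinted cluster on chromosome 14 that also holds hsa-mir-127. The raw counts of HGLibA_25053 were 119 and 125 with vehicle and 803 and 542 with lapatinib, and those of HGLibA_25054 were 87 and 77 against 691 and 485. The other pair of sgRNAs moved the opposite way, from 212 and 196 to 29 and 45 counts and from 155 and 175 to 27 and 37. The log2 fold changes were 3.01, 3.39, -1.91 and -1.82, and all 4 passed edgeR's test. At baseline their counts ran from 82 to 259. For hsa-mir-22, a broadly expressed microRNA with the lowest p for a lower gene (p = 0.000275, adjusted p = 0.465, exact rank aggregation), 3 sgRNAs fell and the fourth did not. Their normalized counts (raw counts divided by a median-of-ratios size factor) were 275 and 291 with vehicle and 106 and 132 with lapatinib for HGLibA_24341, 155 and 193 against 38.3 and 43.2 for HGLibA_24342, and 231 and 233 against 49.5 and 55.3 for HGLibA_24344. HGLibA_24343 stood at 151 and 133 with vehicle and 236 and 171 with lapatinib (adjusted p = 0.122, edgeR). In OE19 none of the 4 passed.

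Ranked by the median over sgRNAs, with both replicate pairs of one sign, the microRNAs highest with lapatinib in N87 were hsa-mir-122 (median log2 fold change 2.07 ± 2.26, SD over 4 sgRNAs), hsa-mir-100 (1.85 ± 1.75), hsa-mir-196a-1 (1.80 ± 1.21, 3 sgRNAs), hsa-mir-330 (1.69 ± 0.91), hsa-mir-135b (1.54 ± 2.20) and hsa-mir-16-2 (1.48 ± 1.53). The lowest were hsa-mir-144 (-2.45 ± 2.01), hsa-mir-483 (-2.20 ± 3.19), hsa-mir-30d (-2.18 ± 2.52), hsa-mir-34b (-1.93 ± 1.79), hsa-mir-320a (-1.86 ± 1.75, 3 sgRNAs) and hsa-mir-150 (-1.85 ± 0.96). For hsa-mir-122, hsa-mir-135b, hsa-mir-16-2, hsa-mir-483 and hsa-mir-30d the SD over sgRNAs exceeded the size of the median. Several of these medians changed when 1 library was left out, and each was taken over the sgRNAs that still had at least 40 counts. Without vehicle replicate 2 hsa-mir-30d stood at -0.07, but HGLibA_24541 and HGLibA_24543, which had fallen, then had too few counts to be tested. That value therefore does not show that its sgRNAs moved less. In that setting hsa-mir-320a stood at -0.96. Without vehicle replicate 1 hsa-mir-320a stood at -0.54 and hsa-mir-150 at -1.16. Without lapatinib replicate 1 hsa-mir-483 was at -1.36 and hsa-mir-150 at -1.22, and without lapatinib replicate 2 hsa-mir-483 was at -5.48 and hsa-mir-144 at -3.83. Against baseline hsa-mir-196a-1 was at 0.64, and scaling by total counts put hsa-mir-135b at 1.01 and hsa-mir-16-2 at 0.95. hsa-mir-122 is the main microRNA of the liver and hsa-mir-144 one of red blood cells, and neither is known for a role in stomach epithelium. The sgRNAs of hsa-mir-122 had normalized counts of 58.7 and 70.1 with vehicle and 865 and 518 with lapatinib (HGLibA_23345), 29.3 and 52.6 against 351 and 408 (HGLibA_23346), and 164 and 185 against 371 and 347 (HGLibA_23344). These 3 rose. The fourth, HGLibA_23343, fell from 177 and 138 to 50.7 and 67.3. For hsa-mir-144 the normalized counts of HGLibA_23896 were 31.7 and 75.1 with vehicle and 2.47 and 9.61 with lapatinib, those of HGLibA_23895 were 40.9 and 72.6 against 3.71 and 13.2, and those of HGLibA_23894 were 71.8 and 82.6 against 6.19 and 30.0. These 3 fell, and HGLibA_23893 rose from 65.6 and 108 to 244 and 183. In OE19 none of the 8 sgRNAs of these microRNAs passed the test, with log2 fold changes between -0.45 and 0.26.

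Of the 6 highest, hsa-mir-330, hsa-mir-196a-1 and hsa-mir-16-2 had no sgRNA that fell. The sgRNAs of hsa-mir-330 had raw counts of 191 and 161 with vehicle and 750 and 648 with lapatinib, 371 and 275 against 294 and 683, 67 and 38 against 192 and 143, and 154 and 132 against 131 and 163. The first 3 rose, and the last had a log2 fold change of 0.59 (adjusted p = 0.0681, edgeR). hsa-mir-150, a microRNA of lymphocytes, had no sgRNA that rose. Its counts were 384 and 299 with vehicle and 84 and 132 with lapatinib for HGLibA_23945, 58 and 66 against 0 and 14 for HGLibA_23947 and 28 and 33 against 2 and 4 for HGLibA_23944, which fell. HGLibA_23946 went from 199 and 248 to 33 and 127 (adjusted p = 0.0597, edgeR), and the lapatinib replicates of this sgRNA lay far apart.

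The largest single changes in N87 belonged to 1 sgRNA of a microRNA rather than to the microRNA. HGLibA_25086 against hsa-mir-346, a microRNA with a hairpin GC content of 67.4%, had 43 and 27 counts at baseline, 44 and 29 with vehicle, then 1397 and 921 in the lapatinib libraries. That is a 47.1-fold rise in normalized counts, from 29.1 ± 6.92 to 1417 ± 440 (SD, n = 2; folds are ratios of mean normalized counts with 1 added to each). The folds of the other sgRNAs of hsa-mir-346 were 3.71, 0.944 and 0.626, of which the first passed the test as higher. HGLibA_24027 against hsa-mir-181c went from 50 and 73 counts with vehicle to 1843 and 1333 with lapatinib, 38.2-fold. The folds of the other hsa-mir-181c sgRNAs were 2.33, 0.749 and 0.297, and the first of these rose while the last fell. HGLibA_23162 against hsa-let-7b went from 80 and 64 counts to 1278 and 944, 23.2-fold, while the other sgRNAs of hsa-let-7b stood at 0.565, 0.504 and 0.469 of the vehicle level. HGLibA_23800 against hsa-mir-130a reached 2350 and 1698 counts from 202 and 159, 17.0-fold, with 2.15-fold for another sgRNA and 1.05 and 0.932 for the remaining ones. HGLibA_26478 against hsa-mir-449c reached 2109 and 1536 counts from 179 and 208, 14.2-fold. For hsa-mir-449c, a relative of the p53-induced mir-34, another sgRNA rose 4.87-fold and the last ones were at 1.13 and 0.968. In all 5 cases both lapatinib libraries lay above all 4 other N87 libraries, but the sgRNAs were picked for their large folds.

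At the other end, sgRNAs were depleted. HGLibA_27377 against hsa-mir-483, which is made from an intron of the growth factor gene IGF2, had 59 and 46 counts at baseline, 30 and 46 with vehicle and none in either lapatinib library, at least 16.7-fold lower when 3 counts over the group are taken as the floor. HGLibA_25748 against hsa-mir-422a had 35 and 24 counts with vehicle and none with lapatinib, at least 12.9-fold lower. HGLibA_25049 against hsa-mir-335 had 54 and 29 counts with vehicle and 0 and 2 with lapatinib, a ratio of 0.0366 (exact 95% interval 0.00436 to 0.137, counting error only). HGLibA_24543 against hsa-mir-30d had 28 and 30 against 1 and 1, a ratio of 0.0524 (0.00620 to 0.198). HGLibA_25746 against hsa-mir-421 had 60 and 111 against 3 and 6, or 0.0917 of the vehicle level after normalization. All 5 fell by edgeR's test. The call for hsa-mir-421 did not hold without vehicle replicate 2, with a log2 fold change of -3.12 in place of -3.69 (adjusted p = 0.0571). With a vehicle library left out, too few counts remained to test hsa-mir-422a and hsa-mir-30d (either library), hsa-mir-335 (replicate 1) and hsa-mir-483 (replicate 2). For hsa-mir-422a the sgRNAs with folds of 0.869 and 1.22 did not pass, and the last had too few counts for the test. hsa-mir-30d had sgRNAs at both ends, with another that rose 3.61-fold, from 231 and 193 counts to 544 and 464. Over all 1245 microRNA sgRNAs in N87, 12 changed more than 10-fold upward and 8 downward, 0.964% and 0.643%, against 0.653% and 0.463% of all 123411.

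In OE19 cells few microRNA sgRNAs passed the test with lapatinib. Of the 1224 tested, 22 rose (1.80%) and 2 fell (0.163%) against vehicle by edgeR's quasi-likelihood test, where over all sgRNAs tested 2.33% rose and 0.0795% fell. The median log2 fold change was -0.10 for the microRNA sgRNAs, -0.14 for the control guides and -0.02 for all sgRNAs. The replicate pairs differed more than in N87, with a Pearson correlation of 0.488 over the 1224 sgRNAs. The gene test passed none of 314 microRNAs, while over all gene names 0.0957% passed as higher and 0.0% as lower. At an unadjusted p below 0.05 it named 13 microRNAs higher and 31 lower, 4.14% and 9.87%, against 5.47% and 5.37% of all names, and with DESeq2's p-values it passed none. All 4 sgRNAs had one sign for 67 of 284 microRNAs (23.6%; 15.8% among the microRNAs above number 500), and the intraclass correlation was 0.112, against 0.0351 above number 500. These are descriptions over the same 4 libraries, and the difference was not tested.

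The 22 sgRNAs that rose in OE19 belonged to 21 microRNAs. HGLibA_24183 against hsa-mir-199a-1 had 42 and 34 counts at baseline, 39 and 28 with vehicle, then 3931 and 1993 in the lapatinib libraries. Its normalized count rose 212-fold, from 30.3 ± 2.14 to 6624 ± 4994 (SD, n = 2), and in N87 the same sgRNA had 25 and 38 counts with vehicle and 0 and 11 with lapatinib. The other hsa-mir-199a-1 sgRNAs had folds of 2.15, 1.49 and 0.934 in OE19, none past the test. HGLibA_24026 against hsa-mir-181b-2 went from 54 and 52 counts to 1021 and 543, 34.5-fold, while in N87 it fell to 0.180 of the vehicle level. HGLibA_24068 against hsa-mir-188 went from 242 and 156 counts to 2820 and 1333, 26.2-fold. HGLibA_25499 against hsa-mir-378e went from 243 and 160 counts to 1781 and 1859, 20.6-fold, and it also rose in N87, 4.37-fold. HGLibA_27445 against hsa-mir-498 went from 281 and 149 counts to 1970 and 1043, 17.7-fold. The remaining sgRNAs of hsa-mir-181b-2, hsa-mir-188, hsa-mir-378e and hsa-mir-498 had folds between 0.742 and 1.68, and none passed.

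None of these 5 calls in OE19 held when either vehicle library was left out, or when the baseline libraries took the place of vehicle, although both raw lapatinib counts lay above every other OE19 library. The log2 fold changes themselves moved little in these settings: from 7.65 to 7.81 for hsa-mir-199a-1 (7.74 with all libraries), 4.85 to 5.42 for hsa-mir-181b-2 (5.12), 4.66 to 4.69 for hsa-mir-188 (4.69), 4.34 to 4.42 for hsa-mir-378e (4.35) and 3.99 to 4.28 for hsa-mir-498 (4.13). The lapatinib replicates differed widely, with normalized counts of 10155 and 3093 for hsa-mir-199a-1. The loss was not particular to these 5 sgRNAs. With baseline in place of vehicle, 1 of all 122367 sgRNAs tested passed as higher (0.000817%). Leaving out a vehicle library left 1 sample in that group, and calls were then nearly absent over all sgRNAs too. These settings therefore do not set the named sgRNAs apart from the rest of the library. In OE19 7 microRNA sgRNAs changed more than 10-fold upward and 2 downward, 0.562% and 0.161%, against 0.634% and 0.0276% of all sgRNAs. A rise of more than 20-fold was seen for 4, or 0.321%, against 0.335% of all sgRNAs.

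Only hsa-mir-143, a microRNA of smooth muscle and stroma that is often reduced in gut tumours, had more than 1 sgRNA that rose in OE19. The normalized counts of HGLibA_23890 were 272 and 259 with vehicle and 1095 and 562 with lapatinib, and those of HGLibA_23889 were 120 and 141 against 346 and 279, with log2 fold changes of 1.61 and 1.24 (adjusted p = 0.0274 and 0.0262, edgeR). Its other sgRNAs were at 0.15 and 0.19. In N87 both of these sgRNAs fell, by 0.99 and 0.83 on the log2 scale.

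hsa-mir-384, a microRNA described mainly in the brain, was the strongest candidate among the lower ones in OE19, with all 4 sgRNAs below vehicle (gene test p = 1.56e-05, adjusted p = 0.251, exact rank aggregation of edgeR's p-values). The normalized counts were 164 and 99.9 with vehicle and 15.5 and 35.7 with lapatinib for HGLibA_25542, which fell (log2 fold change -2.30, adjusted p = 0.0287). They were 275 and 173 against 80.1 and 107 for HGLibA_25543, 240 and 203 against 129 and 123 for HGLibA_25544, and 291 and 190 against 240 and 154 for HGLibA_25541. The first 3 had no overlap between vehicle and lapatinib, and the fourth overlapped. Since hsa-mir-384 is shown for its low p in this same comparison, that is no added result. At baseline the 4 sgRNAs had 75.7 and 93.8, 172 and 167, 164 and 148, and 202 and 187, and vehicle replicate 1 was the highest of the 6 OE19 libraries for each sgRNA. In N87 the same sgRNAs moved apart, with HGLibA_25544 higher (280 and 193 raw counts with vehicle, 573 and 686 with lapatinib) and HGLibA_25543 lower. The only other sgRNA that fell in OE19 was one against hsa-mir-26b, with a log2 fold change of -1.58, which also fell in N87 by 1.91 on the log2 scale.

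Of the 5 sgRNAs with the smallest folds in OE19, that of hsa-mir-384 was the only one to pass. HGLibA_24087 against hsa-mir-190a had 23 and 33 counts with vehicle and 0 and 1 with lapatinib, a ratio of 0.0387 (exact 95% interval 0.000964 to 0.225, counting error only). HGLibA_24359 against hsa-mir-224 had 56 and 8 against 1 and 1, a ratio of 0.0678 (0.00804 to 0.255), and its vehicle replicates lay far apart. HGLibA_24217 against hsa-mir-202 went from 108 and 64 counts to 3 and 18, and HGLibA_24507 against hsa-mir-302e from 141 and 56 to 1 and 24. The adjusted p of these 4 were 0.0781, 0.155, 0.121 and 0.212 by edgeR. Without lapatinib replicate 2 those of hsa-mir-190a, hsa-mir-202 and hsa-mir-302e passed (adjusted p = 0.0242, 0.00204 and 3.32e-05).

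By medians, the lowest microRNAs in OE19 were hsa-mir-302b (-1.35 ± 0.98, SD over 4 sgRNAs), hsa-mir-376a-1 (-1.23 ± 1.05, 3 sgRNAs), hsa-mir-153-1 (-1.13 ± 0.44), hsa-mir-384 (-1.05 ± 0.84), hsa-mir-124-3 (-0.97 ± 0.75) and hsa-mir-216a (-0.91 ± 0.67). hsa-mir-302b is made in pluripotent cells, hsa-mir-124-3 in neurons and hsa-mir-216a in the pancreas. The highest were hsa-mir-451a (0.84 ± 0.59), hsa-mir-151a (0.81 ± 0.80), hsa-mir-199a-1 (0.79 ± 3.66), hsa-mir-328 (0.78 ± 0.71), hsa-mir-375 (0.75 ± 0.81) and hsa-mir-143 (0.71 ± 0.74). For hsa-mir-302b the normalized counts of HGLibA_24494 were 351 and 237 with vehicle and 150 and 143 with lapatinib, those of HGLibA_24493 42.8 and 21.6 against 5.17 and 14.0, and those of HGLibA_24496 17.7 and 17.0 against 2.58 and 4.66. HGLibA_24495 had 284 and 302 against 346 and 295, which overlap. None of the 4 passed the test, and HGLibA_24493 and HGLibA_24496 had at most 58 and 24 raw counts in any OE19 library. Without vehicle replicate 1 the hsa-mir-302b median was -0.33, but HGLibA_24493 and HGLibA_24496 then had too few counts to be tested. The hsa-mir-153-1 median was -0.61 in that setting. With baseline in place of vehicle hsa-mir-302b was at -0.39, hsa-mir-153-1 at -0.24, hsa-mir-384 at -0.58, hsa-mir-124-3 at -0.63 and hsa-mir-216a at -0.45. Without lapatinib replicate 1 hsa-mir-376a-1 was at -0.63, hsa-mir-153-1 at -0.73 and hsa-mir-151a at 0.26. Scaling by total counts put the 6 highest medians between 0.25 and 0.38.

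One feature that the selection did not use moved with the OE19 values. Across 272 microRNAs with a RefSeq hairpin, the median log2 fold change with lapatinib correlated with the GC content of the hairpin (Pearson r = 0.476, Spearman rho = 0.466), a description over points that share the same 4 libraries. In the lowest GC tercile, with hairpins of 27.3% to 44.3% GC, the median over microRNAs was -0.28 and 75 of 89 were below 0. In the highest tercile, at 52.9% GC or more, it was 0.03 and 40 of 92 were below 0. hsa-mir-384, at 27.3% GC, and hsa-mir-302b, at 38.4%, both belonged to the lowest tercile. Of the 27 microRNAs with a hairpin and an unadjusted gene p below 0.05 on the lower side, 13 were in the lowest tercile, 10 in the middle and 4 in the highest. The relation was present in each replicate pair (r = 0.439 and 0.314), and was weaker without vehicle replicate 1 (0.339) and against baseline (0.363). In N87 with lapatinib r was -0.0222 over 271 microRNAs, and in OE19 vehicle against baseline it was -0.192. Whether the base composition of the sgRNAs plays a part in the OE19 medians was not tested, since the sgRNA sequences were not used here.

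Without the drug almost no microRNA sgRNA changed. Between baseline and vehicle in N87, edgeR passed none of 1239 sgRNAs in either direction, with 57 at an unadjusted p below 0.05, and DESeq2 passed none. Over all sgRNAs tested 0.0% rose and 0.0399% fell. In OE19 none of 1236 rose and 1 fell (0.0809%), with 110 at an unadjusted p below 0.05 and the same counts by DESeq2, against 0.0114% and 0.893% of all sgRNAs. The 1 sgRNA was HGLibA_25507 against hsa-mir-378g. Its raw counts in OE19 were 134 and 174 at baseline and 49 and 44 with vehicle, a log2 fold change of -1.64 (adjusted p = 0.0250, edgeR). In N87 its counts were 170 and 128 against 66 and 50, or -1.06, without passing. The other hsa-mir-378g sgRNAs had log2 fold changes from -0.18 to 0.39 in OE19. With the replicate number as a block, 4 microRNA sgRNAs rose and 4 fell in N87 (0.323% each, against 0.263% and 2.16% of all sgRNAs), and 7 rose and 5 fell in OE19 (0.566% and 0.405%, against 0.599% and 3.09%).

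The gene test passed no microRNA in these drug-free comparisons, where over all gene names 0.0574% passed as higher and 2.34% as lower in N87, and 0.0% and 1.53% in OE19. At an unadjusted p below 0.05 on the lower side it named 4 of 314 microRNAs in N87 (1.27%, against 7.07% of all names) and 1 in OE19 (0.318%, against 6.99%), and with DESeq2's p-values it passed none. On the higher side it named 14 and 15 microRNAs, 4.46% and 4.78%, against 5.11% and 4.99%. The lowest medians in N87 were those of hsa-mir-483 (-0.85 ± 0.40, SD over 4 sgRNAs), hsa-mir-31 (-0.33 ± 0.38), hsa-mir-320a (-0.31 ± 0.20) and hsa-mir-378j (-0.30 ± 0.20), and the highest those of hsa-mir-150 (0.38 ± 0.29), hsa-mir-23c (0.31 ± 0.18), hsa-mir-129-1 (0.29 ± 0.13) and hsa-mir-411 (0.28 ± 0.04). In OE19 the lowest were hsa-mir-320a (-1.03 ± 0.70), hsa-mir-151a (-0.57 ± 0.56), hsa-mir-346 (-0.49 ± 0.60) and hsa-mir-326 (-0.48 ± 0.29), and the highest hsa-mir-302b (0.75 ± 0.48), hsa-mir-301a (0.57 ± 0.62, 3 sgRNAs), hsa-mir-125b-2 (0.52 ± 0.30) and hsa-mir-320d-2 (0.51 ± 0.43). hsa-mir-320a was thus among the lowest in both lines, but stood at -0.05 in N87 without baseline replicate 1 and at -0.46 in OE19 without baseline replicate 2. The vehicle libraries are those of the lapatinib comparison, where hsa-mir-302b was lowest in OE19, and without vehicle replicate 1 its median here was 0.33. For hsa-mir-320a in OE19 the raw counts of HGLibA_24979 were 165 and 215 at baseline and 122 and 107 with vehicle. Those of HGLibA_24978 were 30 and 40 against 7 and 16, and those of HGLibA_24977 19 and 28 against 6 and 10. Those of HGLibA_24976 were 196 and 195 against 232 and 145. The first 3 lay lower with vehicle in both replicates and the fourth overlapped, and none passed the test. For hsa-mir-483 in N87 the counts of HGLibA_27380 were 102 and 67 at baseline and 41 and 24 with vehicle (log2 fold change -1.08), those of HGLibA_27378 105 and 64 against 45 and 27 (-0.93), those of HGLibA_27379 83 and 29 against 37 and 16 (-0.76), and those of HGLibA_27377 59 and 46 against 30 and 46 (-0.16). The 4 sgRNAs shared the sign, and none passed singly. The hsa-mir-483 median was -0.35 without baseline replicate 1 and -1.36 without vehicle replicate 1.

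Of 24 genes of microRNA processing in the table, 3 passed the gene test as lower in N87 vehicle against baseline, where 2.34% of all names passed: DROSHA, the nuclease of the first cut (median log2 fold change -0.57 ± 0.26, SD over 6 sgRNAs, adjusted p = 0.0176, exact rank aggregation of edgeR's p-values), XPO5, the nuclear exporter (-0.54 ± 0.36, adjusted p = 0.0244), and DGCR8, the partner of DROSHA (-0.37 ± 0.44, adjusted p = 0.0424). Without vehicle replicate 2 none of the 3 passed, with control guides as the scaling XPO5 alone passed, and with the replicate number as a block XPO5 alone passed in N87 and DGCR8 in OE19. DICER1, the nuclease of the second cut, had a median of -0.11 ± 0.50 (adjusted p = 0.679). Without the block none of the 24 passed in OE19, with DGCR8 at -0.57 ± 0.47 (adjusted p = 0.121), XPO5 at -0.49 ± 0.46 (adjusted p = 0.597) and DROSHA at -0.25 ± 0.27, and whether these genes differ between the lines is not reported here. With lapatinib none of the 24 passed in either line, and the lowest p in OE19 was that of TNRC6A, an Argonaute partner (-1.14 ± 0.64, p = 0.00586, adjusted p = 0.668, exact rank aggregation). These genes have sgRNAs in both library A and library B, 5 or 6 each.

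A microRNA inside a protein-coding gene on the same strand, in an intron or not, can be set beside this host gene, which has sgRNAs of its own. Of 68 host genes of 94 microRNAs, 3 fell in N87 vehicle against baseline by the gene test, where 2.34% of all names fell: HUWE1, a ubiquitin ligase (-0.59 ± 0.41, adjusted p = 0.00111), NVL, a ribosome assembly factor (-0.70 ± 0.40, adjusted p = 0.00970), and NFYC, a subunit of the CCAAT-binding factor (-0.74 ± 0.33, adjusted p = 0.0310). These hosts are named because they passed, so their place below the microRNAs is no result. hsa-mir-98 and hsa-let-7f-2, both in HUWE1, had medians of -0.11 ± 0.30 and 0.07 ± 0.23, hsa-mir-320b-2 in NVL had 0.19 ± 0.47, and hsa-mir-30e and hsa-mir-30c-1 in NFYC had -0.15 ± 0.15 and -0.01 ± 0.36. In OE19 2 of the 68 hosts fell, where 1.53% of all names did. They were HUWE1 (-0.95 ± 0.84, adjusted p = 0.0222) and WDR82, a subunit of a histone methyltransferase complex (-0.93 ± 0.36, adjusted p = 0.0107), beside 0.00 ± 0.18 for hsa-mir-98, 0.06 ± 0.13 for hsa-let-7f-2 and 0.05 ± 0.15 for hsa-let-7g in WDR82.

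The let-7 family, whose members restrain RAS and other growth genes in many tissues, showed no common direction with lapatinib in N87. Of 48 sgRNAs against the 12 names with the let-7 seed, 13 rose and 20 fell, with a median log2 fold change of -0.44 against -0.07 over all sgRNAs tested. Over all sgRNAs tested 31.2% rose and 29.9% fell in N87, and 2.33% and 0.0795% in OE19, and the counts of this and every other list, family and cluster stand against these shares. None of these counts was tested as a list. The lowest were hsa-let-7a-1 (-1.50 ± 0.61, SD over 4 sgRNAs), hsa-let-7a-2 (-1.41 ± 2.32), hsa-mir-98 (-1.39 ± 1.29), hsa-let-7b (-0.97 ± 2.77), hsa-let-7f-1 (-0.64 ± 1.43), hsa-let-7c (-0.34 ± 1.44) and hsa-let-7i (-0.23 ± 0.86). Above 0 were hsa-let-7f-2 (0.31 ± 2.03), hsa-let-7g (0.31 ± 1.19), hsa-let-7a-3 (0.41 ± 1.44), hsa-let-7d (0.72 ± 2.16) and hsa-let-7e (0.83 ± 1.00). The 3 genes that encode the same hsa-let-7a-5p thus ran from -1.50 to 0.41, and with total counts as the only scaling hsa-let-7a-3, hsa-let-7f-2 and hsa-let-7g came out below 0.

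Of the 287 microRNAs up to number 500 with 4 tested sgRNAs, only hsa-let-7a-1 had all 4 fall in N87. Among the 1306 microRNAs above number 500 with 4 tested sgRNAs, 11 had all 4 fall. The normalized counts were 230 and 258 with vehicle and 24.7 and 90.1 with lapatinib for HGLibA_23150, 315 and 410 against 68.0 and 138 for HGLibA_23152, 299 and 390 against 119 and 207 for HGLibA_23151, and 219 and 190 against 122 and 118 for HGLibA_23153. The groups did not overlap for any of the 4, which are shown because all fell, so this is no added result. The log2 fold changes were -2.13 ± 0.40, -1.86 ± 0.29, -1.13 ± 0.26 and -0.82 ± 0.25 (SE), with adjusted p from 6.1e-05 to 0.0105 by edgeR. The 4 sgRNAs did not pass in OE19, where the median was -0.04 ± 0.39. Its neighbours within chr9:94175957-94178920 are hsa-let-7f-1, of whose 4 sgRNAs 1 rose and 2 fell, and hsa-let-7d, with 2 that rose and 1 that fell. Of the hsa-let-7d sgRNAs, HGLibA_23170 rose from 62 and 73 raw counts to 520 and 410 and HGLibA_23171 from 125 and 105 to 316 and 268, HGLibA_23172 fell from 138 and 212 to 39 and 52, and HGLibA_23173 went from 691 and 692 to 301 and 390 without passing. In OE19 none of the let-7 sgRNAs passed, with a list median of -0.11 and medians of single names from -0.55 (hsa-let-7a-2) to 0.63 (hsa-mir-98).

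Of the other lists of related microRNAs, the mir-15 and mir-16 group, known for braking the cell cycle, stood highest in N87, where 14 of 28 sgRNAs rose and 5 fell (31.2% and 29.9% over all sgRNAs), with a median log2 fold change of 0.71. hsa-mir-16-2 (1.48 ± 1.53) and hsa-mir-15a (0.99 ± 1.78) were at the top and hsa-mir-497 (-1.10 ± 1.88) at the bottom, although all carry the seed AGCAGCA. For hsa-mir-16-2 the raw counts were 42 and 41 with vehicle and 353 and 300 with lapatinib for HGLibA_24004, 117 and 102 against 404 and 345 for HGLibA_24003, 245 and 263 against 315 and 225 for HGLibA_24005 and 243 and 157 against 168 and 152 for HGLibA_24006. The first 3 rose once scaled for library size, and the last did not pass. hsa-mir-16-1, which encodes the same mature sequence, had a median of 0.05 ± 1.39, below 0 when scaled by total counts or control guides, and no sgRNA that rose. None of the 28 passed in OE19, and the median there was -0.06.

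The oncogenic mir-17-92 cluster and its paralogues had a median of 0.23 in N87, with 19 of 55 sgRNAs up and 14 down. hsa-mir-92a-2 (1.16 ± 0.59) and hsa-mir-93 (1.13 ± 1.96) were highest, and hsa-mir-18b (-1.53 ± 0.74) and hsa-mir-20a (-0.86, 1 sgRNA) lowest. The 20 sgRNAs inside the cluster itself, chr13:91350605-91351391, had a median of -0.04 with 4 up and 6 down in N87, and 0.27 with none past the test in OE19. The mir-34 family list, which joins the p53-induced mir-34 names and their mir-449 relatives, was at 0.01 (7 up and 7 down of 24). Its highest were hsa-mir-449c (1.18 ± 1.84) and hsa-mir-34a (1.07 ± 0.93), and its lowest hsa-mir-34c (-0.84 ± 1.01) and hsa-mir-34b (-1.93 ± 1.79). The mir-200 family, which keeps epithelial cells epithelial, had a median of -0.58 with 5 of 20 up and 9 down, from -1.41 ± 1.72 for hsa-mir-200c to 0.86 ± 1.71 for hsa-mir-200b. In OE19 it stood at 0.16 with none past the test.

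The drug acts on HER receptors, and microRNAs described as acting against them (hsa-mir-7, hsa-mir-125, hsa-mir-205, hsa-mir-331, hsa-mir-146, hsa-mir-199a and hsa-mir-375) were listed together. In N87 8 of 51 sgRNAs rose and 17 fell, with a median of -0.36, from -1.15 ± 0.50 for hsa-mir-199a-1 to 0.34 ± 1.19 for hsa-mir-375, which was below 0 when scaled by total counts. In OE19 4 of 52 rose (2.33% over all sgRNAs) and none fell, with a median of -0.01. hsa-mir-199a-1 and hsa-mir-375 were the highest there, at 0.79 ± 3.66 and 0.75 ± 0.81, each with 1 sgRNA that rose. MicroRNAs described as acting on brakes of RAS, MAPK or PI3K signalling, such as hsa-mir-21 and hsa-mir-221, had a median of -0.33 in N87 (14 up and 11 down of 46) and -0.10 in OE19 (1 up and 1 down of 46). hsa-mir-21, the most widely described microRNA of tumours, was highest in both lines, at 1.04 ± 1.05 with 3 sgRNAs that rose in N87 and 0.44 ± 1.32 with 1 that rose in OE19, where scaling by total counts put it just below 0. hsa-mir-301b was lowest in N87 at -1.49 ± 1.12, and hsa-mir-26a-2 in OE19 at -0.61 ± 0.72.

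Gastrointestinal and epithelial microRNAs had a median of -0.10 in both lines, with 13 up and 16 down of 49 in N87 and 3 up of 51 in OE19. hsa-mir-196a-1 (1.80 ± 1.21) and hsa-mir-192 (0.75 ± 1.47) were highest in N87 and hsa-mir-203a (-1.03 ± 1.42) and hsa-mir-194-1 (-1.02 ± 1.57) lowest, while in OE19 hsa-mir-143 was highest and hsa-mir-215 lowest at -0.64 ± 0.07. MicroRNAs typical of other tissues, such as muscle, brain, liver and blood, formed a further list. They had a median of -0.33 in N87, with 26 up and 40 down of 90, and -0.25 in OE19, with 1 up of 91.

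By family number, among families with at least 4 names, mir-29 had the lowest median in N87 with lapatinib (-1.15, 4 up and 7 down of 16), followed by mir-376 (-0.91, 1 up and 7 down of 15) and mir-181 (-0.62, 3 up and 11 down of 23). The highest were mir-302 (0.09, 6 up and 5 down of 21), mir-320 (0.08, 8 up and 5 down of 30) and mir-378 (-0.09, 16 up and 8 down of 44), the first and second of which fell below 0 with total counts or control guides as the scaling. In OE19 the lowest were mir-302 (-0.60), mir-376 (-0.52) and mir-320 (-0.18), and the highest mir-181 (0.18), mir-30 (0.13) and mir-378 (0.08), which turned negative when scaled by total counts. These scalings moved the median of all sgRNAs in N87 from -0.07 to -0.59 and -0.34 and that in OE19 from -0.02 to -0.46 and 0.10. Relative to that median, mir-29 stayed between -1.09 and -1.07 in N87 and mir-302 between -0.59 and -0.58 in OE19 under these scalings. The 26 microRNAs of the imprinted cluster at chr14:101022066-101065991 had 103 sgRNAs in the library, tested or not. Of these, 35 rose and 32 fell in N87 (31.2% and 29.9% over all sgRNAs tested). None passed in OE19, where their median was -0.22.

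The effect of lapatinib in OE19, relative to that in N87, was tested as an interaction term, treatment by line, in 8 libraries. The doses differed between the lines, so the contrast includes the dose. Of 1227 microRNA sgRNAs, 245 were higher and 255 lower in OE19 than in N87, together 40.7%. Over all sgRNAs tested 20.7% were higher and 20.5% lower. The gene test passed no microRNA, where over all gene names 0.0191% passed as higher and 0.0% as lower. With an unadjusted p below 0.05 it named 17 higher and 16 lower, and with DESeq2's p-values it passed none. The lowest p on the higher side was that of hsa-mir-181b-2 (p = 0.000949, adjusted p = 0.584, exact rank aggregation of edgeR's p-values), with a median difference of 1.38 ± 3.52 over 4 sgRNAs, and on the lower side that of hsa-mir-135b (p = 0.00135, adjusted p = 0.724), with -1.49 ± 2.38. Both rested on part of their sgRNAs, since 1 sgRNA of hsa-mir-181b-2 was higher and 2 of hsa-mir-135b were lower, with 1 of hsa-mir-135b higher. The raw counts of the hsa-mir-135b sgRNA HGLibA_23854 in N87 were 408 and 370 with vehicle against 1688 and 1604 with lapatinib, and 376 and 281 against 112 and 159 in OE19, whose lapatinib libraries were the least deeply sequenced.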

How the data were processed

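Each library was made by amplifying the integrated sgRNAs from genomic DNA and sequencing them. The authors deposited 1 table of raw read counts, 1 row per sgRNA and 1 column per library. The submitters' processing notes name FastQC 0.11.5, Bowtie2 2.3.2 and MAGeCK 0.5.6, without their roles. Reads carry no molecular identifiers, so counting intervals and floors cover counting error only, and the depth behind each result is given by the counts printed with it. Every count column belongs to a labelled sample and none was left out.

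The members and lists were chosen with earlier results of these data known. sgRNAs with at least 40 counts over the 4 libraries of a comparison (80 over 8 for the interaction) were tested with edgeR 4.0.16 (TMM factors, quasi-likelihood test) in R 4.3.3, with Benjamini-Hochberg adjustment over all sgRNAs and a threshold of 0.05. The gene test was a robust rank aggregation of the one-sided sgRNA p-values (ranks under 0.05, names with at least 2 tested sgRNAs), adjusted over all names. MAGeCK was not run. Simulated data, in which all sgRNAs of a changed name had the same fold, served as a check of both tests. Its outcome is not given here, and the simulation leaves out differences between sgRNAs of one name. Normalized counts were divided by median-of-ratios size factors, and folds have a pseudocount of 1. SDs of microRNA medians are over sgRNAs, which are not replicates. Replicates are separate infections, 2 per condition, so p-values measure the spread between these samples. Vehicle libraries serve in both the lapatinib and the drug-free comparisons of a line.

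Named by rule were the 6 highest and 6 lowest microRNA medians per lapatinib comparison and 4 and 4 per drug-free comparison (at least 3 tested sgRNAs, one sign in both replicate pairs), any microRNA past the gene test, the 5 sgRNAs of largest and smallest fold per line (at least 20 mean normalized counts in the higher condition), all let-7 list members, the 2 highest and lowest of each other list, the 3 highest and lowest families with at least 4 names, and the lowest interaction p on each side. The microRNAs of lowest gene-test p in the other comparisons, hsa-mir-143, hsa-mir-26b, hsa-mir-378g and the host genes were chosen after their values were seen. Coordinates, mature sequences and hairpin GC content are from RefSeq (GRCh38.p14), and hairpins within 10 kb on one strand were taken as a cluster. Alternatives were other scalings (median of ratios, total counts, control guides), no minimum count, DESeq2 1.42.0, the replicate number as a block, each library left out, baseline in place of vehicle, and pseudocounts of 0.5 and 5. The sgRNA sequences were not used here.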

Additional observations from a re-analysis of the deposited data

Results flagged for a closer look

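By the interaction test in edgeR, the lapatinib effect was higher in OE19 than in N87 for 245 microRNA sgRNAs and lower for 255. Together these were 40.7% of the 1227 tested, against 41.2% of all sgRNAs tested (20.7% higher and 20.5% lower). The counts were thus near the background and carry no result particular to the microRNA sgRNAs. The lines had received different doses. The following values are log2 differences of the lapatinib effect in OE19 from that in N87. Of the sgRNAs with the largest and smallest folds, the difference was 9.73 for hsa-mir-199a-1 (HGLibA_24183), 7.78 for hsa-mir-181b-2 (HGLibA_24026), 4.21 for hsa-mir-188 (HGLibA_24068), 4.13 for hsa-mir-498 (HGLibA_27445) and 2.31 for hsa-mir-378e (HGLibA_25499), all enriched in OE19. It was -7.48 for hsa-mir-346 (HGLibA_25086), -4.36 for hsa-let-7b (HGLibA_23162), -4.12 for hsa-mir-181c (HGLibA_24027), -4.08 for hsa-mir-449c (HGLibA_26478) and -3.71 for hsa-mir-130a (HGLibA_23800), all enriched in N87.

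The sgRNAs that were depleted in N87 gave 7.84 for hsa-mir-422a (HGLibA_25748), 6.91 for hsa-mir-483 (HGLibA_27377), 4.88 for hsa-mir-335 (HGLibA_25049), 4.48 for hsa-mir-421 (HGLibA_25746) and 4.26 for hsa-mir-30d (HGLibA_24543). The values for hsa-mir-422a and hsa-mir-483 depend on the prior count of the fit, since neither had a count with lapatinib in N87. Among the sgRNAs lowest in OE19 the difference was -2.95 for hsa-mir-384 (HGLibA_25542) and -2.63 for hsa-mir-302e (HGLibA_24507). It was -2.52 for hsa-mir-190a (HGLibA_24087), -1.40 for hsa-mir-224 (HGLibA_24359) and 0.66 for hsa-mir-202 (HGLibA_24217), none of which passed the interaction test (adjusted p = 0.323, 0.569 and 0.587, edgeR). In N87 the lapatinib counts of hsa-mir-384 (HGLibA_25542) were 97 and 102 against 91 and 92 with vehicle, a log2 fold change of 0.67 that did not pass the test.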

How the results depend on the processing

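The gene test passed 0 microRNAs in all comparisons under most settings. The exceptions were hsa-mir-384 in OE19 with lapatinib (1 lower with total counts and without lapatinib replicate 1, a range of 0 to 1), and in N87 drug-free growth hsa-mir-411 (higher, 0 to 1, without baseline replicate 1) and hsa-mir-483 (lower, 0 to 1, without baseline replicate 2 and without vehicle replicate 1). In N87 with lapatinib, total counts gave 222 sgRNAs higher and 554 lower (18.1% and 45.2%, against 19.0% and 44.9% of all sgRNAs), and control-guide scaling 281 and 480 (22.9% and 39.1%, against 24.5% and 37.7%). Leaving out 1 library gave 280 to 379 higher and 205 to 475 lower, with 205 (17.1%, against 15.9% of all) without vehicle replicate 2 and 231 (19.2%, against 17.0%) without vehicle replicate 1. In OE19 with lapatinib, total counts gave 13 higher and 7 lower (1.06% and 0.572%, against 1.40% and 0.295% of all). DESeq2 gave 26 and 4 (2.12% and 0.327%, against 3.03% and 0.128%). Baseline in place of vehicle gave 0 and 0, against 0.000817% and 0.0% of all. Leaving out 1 library gave 0 to 75 higher and 0 to 80 lower, with 75 and 80 (6.14% and 6.55%, against 8.57% and 3.72% of all) without lapatinib replicate 2, 34 and 7 (2.78% and 0.572%, against 4.39% and 0.411%) without lapatinib replicate 1, and 0 and 0 without either vehicle library. In drug-free growth the ranges were 0 to 33 higher and 0 to 20 lower in N87, both highest without vehicle replicate 1 (2.68% and 1.62%, against 2.10% and 4.68% of all), and 0 to 149 and 0 to 126 in OE19, both highest without vehicle replicate 2 (12.1% and 10.2%, against 12.9% and 14.4%), and control-guide scaling gave 2 lower in OE19. The interaction gave 140 to 330 higher and 190 to 265 lower with 1 library left out, and 367 and 176 (29.9% and 14.3%, against 30.2% and 13.5%) with control-guide scaling. Of the processing genes lower in N87 drug-free growth, 1 passed with control-guide scaling (XPO5), 4 with DESeq2 and 0 to 2 with 1 library left out. In OE19 none passed with 1 library left out. Among the alternatives for named microRNA medians 1003 moved by no more than the SD between the replicate pairs (over sgRNAs for the interaction) and 318 by more. A left-out library leaves 1 sample in an arm, whose spread is then assumed to be that of the other samples. In OE19 with lapatinib, leaving out a vehicle library made calls nearly absent over all sgRNAs, not only over the microRNA sgRNAs. The causes of these changes were not tested.

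The replicate numbers were taken only as numbers, since the correlation of same-numbered deviations over all sgRNAs was 0.0606 for lapatinib and vehicle in N87 and 0.0340 in OE19, and 0.238 and 0.0746 for vehicle and baseline. With the replicate number as a block, 4 sgRNAs were higher and 4 lower in N87 drug-free growth and 7 and 5 in OE19, and 1 processing gene passed in each line (XPO5 in N87, DGCR8 in OE19). The block gave 359 higher and 390 lower in N87 with lapatinib, 26 and 2 in OE19, and 233 and 251 for the interaction, and it passed no microRNA by the gene test.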
